A study of Oryctolagus cuniculus with 16 samples.

Results

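The comparison described here sets every operated rabbit vagina of the study against unoperated vagina, gene by gene. Its members are all 16 libraries of the series, 6 control and 10 operated, and all 13001 named genes of the deposited table, of which 10942 had enough counts to be tested. The operated side is the equally weighted mean of 3 groups, so that a group with more libraries counts no more than the others. The animals were juvenile female New Zealand White rabbits of 17 to 19 weeks, and no group carried a genetic change. The control group (6 libraries) held native vagina. The sham group (3 libraries) was operated on without a graft named in the labels. The acellular group (3 libraries) received a graft without tissue particles. The PLATE group (4 libraries) received a graft with the animal's own tissue particles. Graft libraries were taken 10 mm from the graft, and no distance is given for sham or control. Sampling site and surgery therefore cannot be told apart where graft libraries enter. The time between surgery and sampling is not given in the sources used here. Poly(A) RNA of frozen whole tissue was sequenced, so each value mixes all cell types of the sample.

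The vaginal wall holds a lining epithelium, a fibroblast-rich connective tissue with vessels and nerves, and layers of smooth muscle that contract the wall. After surgery, a wall of this kind is known to pass through inflammation, growth of new connective tissue and vessels, and remodelling of collagen. Immediate early genes, which encode transcription factors and feedback inhibitors that are switched on rapidly by growth factors, stretch and stress, are known to respond first to a stimulus.

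Libraries held 15348880 to 23236339 counts on named genes. For library measures the 10 operated libraries were taken as 1 pool, not as the equally weighted mean of 3 groups. None of 4 library measures passed an exact two-sided permutation test between operated and control libraries: named counts (exact p = 0.504), share of counts on genes without a symbol (exact p = 0.139), mitochondrial share (exact p = 0.406) or number of genes detected (exact p = 0.729), with adjusted exact p of 0.555 to 0.729 over the 4 measures. MYH11, the smooth muscle myosin, was at 4924 CPM (read counts scaled by effective library size) or more in every library, and the tract position gene HOXA13 at 6.14 CPM or more. EPCAM, an epithelial adhesion molecule, was at 1.71 CPM in control 2 and reached 287 CPM in acellular 10. Control 2, control 9 and PLATE 1 stood apart from their groups, so values are also given without these 3 libraries together. They stood apart by their values in these same data, so results without them are no independent check. One control and one PLATE library are both numbered 9, although the design text counts 16 rabbits.

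Few single genes separated operated from unoperated vagina. No gene passed an adjusted p of 0.05 in edgeR's quasi-likelihood test (0% of 10942, smallest adjusted p 0.9995). At an unadjusted p under 0.05 there were 425 genes (3.88%), fewer than the 547 that the threshold alone gives: 96 had higher values (0.877%) and 329 lower values (3.01%). DESeq2 called 1 gene of 12271 with an adjusted p (0.00815%), P2RX1, and limma voom with quality weights called 0, with 335 higher and 475 lower genes at an unadjusted p under 0.05. Of all genes tested, 55.1% had a log2 fold change below 0 and 44.9% above, with a median of -0.02. The genes below with the smallest p are therefore given as values, in order of what they encode, and not as calls.

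P2RX1, an ATP-gated cation channel of smooth muscle through which ATP from nerves triggers contraction, fell by 2.57 on the log2 scale in the DESeq2 test (SE 0.50, adjusted p = 0.0026). It was at 3.00 CPM in the lowest control, 21.9 CPM at the control median and 35.5 CPM in the highest control. The sham libraries were at 9.17, 3.78 and 4.28 CPM, the acellular libraries at 0.182, 0.403 and 1.28 CPM, and the PLATE libraries at 14.9, 12.9, 3.77 and 8.95 CPM. All 10 operated libraries lay below the control median, but control 9 (7.24 CPM) lay within the range of sham and PLATE libraries and control 29 (3.00 CPM) below it. Acellular libraries lay below every control. In edgeR the log2 fold change was -2.51 ± 0.50 (SE), a 5.68-fold lower value, with an adjusted p of 0.9995, and leaving out each library in turn moved it from -2.81 to -2.26. By group it was -1.77 in sham, -4.78 in acellular and -0.96 in PLATE. The edgeR test of a difference among the 3 operated groups gave an unadjusted p of 0.0016 (adjusted p = 0.801). With the mean level of the smooth muscle list as a covariate the value was -1.94, and with the skeletal muscle list it was -1.87.

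IL17B, a cytokine of the interleukin 17 family, had the next smallest p. Controls ran from 2.28 through a median of 15.1 to 26.4 CPM. Sham libraries were at 7.40, 2.49 and 8.69 CPM, acellular libraries at 1.69, 1.28 and 1.13 CPM, and PLATE libraries at 7.37, 6.77, 7.90 and 5.46 CPM. Again acellular libraries were below every control, and sham and PLATE libraries lay between control 9 (2.28 CPM) and control 16 (10.8 CPM). The log2 fold change was -1.82 ± 0.44 (SE). It moved to -0.91 with the smooth muscle covariate and to -1.14 with the skeletal muscle covariate.

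CAV3, the caveolin of muscle membranes, ran from 1.76 through 11.7 to 38.0 CPM in controls. It was at 8.57, 3.83 and 5.81 CPM in sham, 2.14, 1.95 and 2.86 CPM in acellular and 3.10, 6.11, 5.13 and 2.95 CPM in PLATE libraries. The 3 high controls, control 2, control 16 and control 25, exceeded every operated library, while the other 3 were at 3.40 CPM or less. The log2 fold change of CAV3 was -1.94 ± 0.55 (SE), and -0.66 with the skeletal muscle covariate. MAPK4, an atypical kinase of the MAP kinase family, had -1.46 ± 0.43 (SE), and -0.51 with that covariate. C4orf54, an open reading frame gene, had -2.11 ± 0.61 (SE), and -0.88 with it. The highest control of both was control 2 (72.3 and 12.6 CPM), and all 10 operated libraries were below the control median of both. NOL3, an inhibitor of cell death known from muscle, ran from 1.12 through 2.198 to 4.72 CPM in controls and from 0.575 to 2.49 CPM in operated libraries, with a log2 fold change of -1.19 ± 0.34 (SE).

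PRKAG2, a regulatory subunit of the energy sensor AMP-activated kinase, differed by less but with little overlap. Controls ran from 80.0 through 113.5 to 180 CPM. Sham libraries were at 84.1, 65.2 and 76.0 CPM, acellular libraries at 55.7, 72.6 and 69.8 CPM, and PLATE libraries at 95.6, 71.9, 92.3 and 67.9 CPM. All 10 were below the control median, and 3 of them exceeded the lowest control. The log2 fold change was -0.66 ± 0.16 (SE), and -0.50 without control 2. SLC30A9, a zinc transporter family member, ran from 50.1 to 85.7 CPM in controls and from 39.8 to 64.1 CPM in operated libraries, with -0.43 ± 0.13 (SE). TTC19, a factor for respiratory complex III, was the only gene of 10942 (0.00914%) with every operated library below every control, and no gene (0%) had every operated library above every control. It was chosen after its values were seen. Its controls ran from 27.7 through 28.4 to 31.6 CPM and its operated libraries from 22.3 to 27.2 CPM, a small step of -0.24 ± 0.09 (SE).

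**Figure D1:**
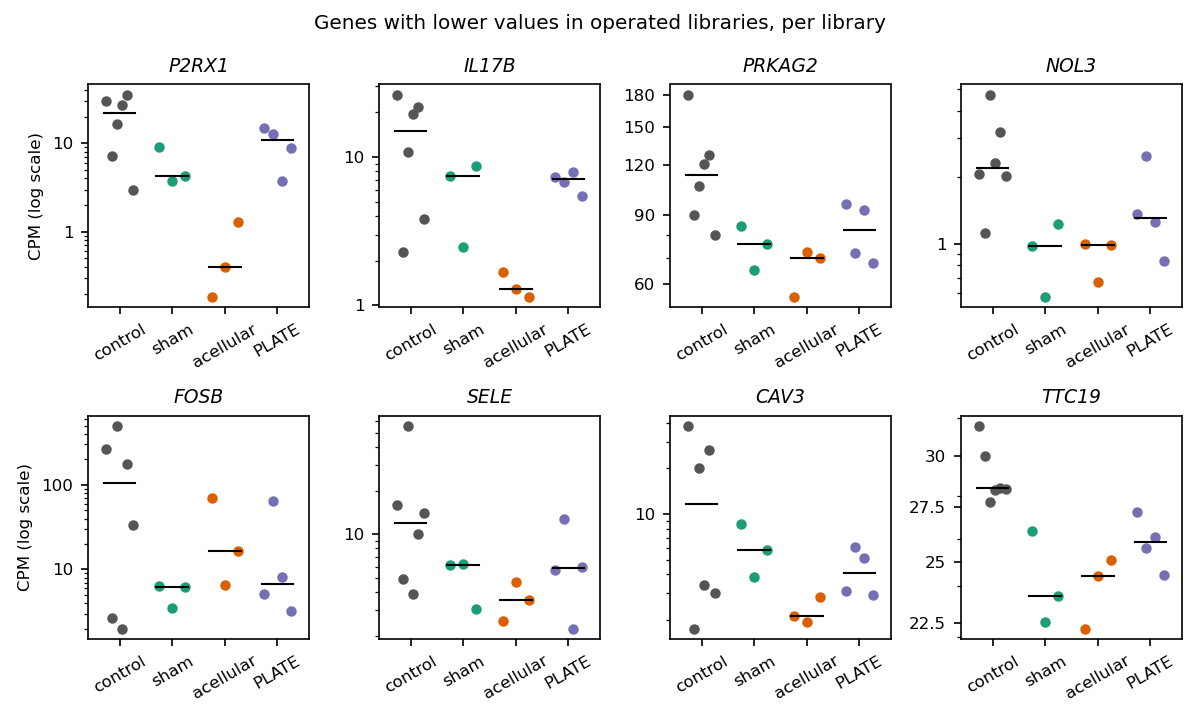
CPM (log axis) of 8 genes with lower values in operated libraries, 1 point per library, with a line at each group's median. Acellular libraries have the lowest P2RX1 and IL17B values, and for FOSB and CAV3 3 of the 6 controls lie near the operated libraries.

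SELE, the endothelial adhesion molecule E-selectin that catches leukocytes from blood, ran from 3.91 through 12.0 to 55.5 CPM in controls. It was at 6.15, 6.27 and 3.05 CPM in sham, 2.55, 4.70 and 3.55 CPM in acellular and 5.69, 12.8, 2.25 and 6.00 CPM in PLATE libraries. Only 1 operated library, PLATE 5, exceeded the control median. The log2 fold change was -1.78 ± 0.50 (SE) and moved to -0.95 without control 16, the library with 55.5 CPM. CIDEA, a lipid droplet protein, ran from 2.52 to 13.2 CPM in controls and from 0.453 to 5.81 CPM in operated libraries, with -1.84 ± 0.53 (SE). KRT80, an epithelial keratin, ran from 1.98 to 5.30 CPM in controls and from 0.978 to 2.67 CPM in operated libraries, with -0.94 ± 0.27 (SE). CHST2, a sulfotransferase that modifies glycans, had -0.53 ± 0.15 (SE), with sham libraries at 17.2 to 18.4 CPM below every control. All 4 PLATE libraries (36.9, 24.3, 25.6 and 27.4 CPM) and acellular 10 (23.1 CPM) lay within the control range of 22.3 to 42.7 CPM.

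PRSS12, a secreted serine protease known from neurons, had the smallest p among the genes with higher values. Controls ran from 6.38 through 12.7 to 18.3 CPM. Sham libraries were at 21.6, 36.4 and 43.8 CPM, acellular libraries at 17.6, 29.3 and 14.0 CPM, and PLATE libraries at 10.9, 18.0, 23.2 and 26.3 CPM. Sham libraries lay above every control, while 4 of the 7 graft libraries lay within the control range. The log2 fold change was 0.91 ± 0.27 (SE) and ran from 0.78 to 1.05 with each library left out in turn. ADAMTS19, a secreted metalloproteinase, ran from 8.16 through 13.5 to 25.2 CPM in controls and from 13.9 to 55.7 CPM in operated libraries, with 0.95 ± 0.29 (SE).

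FBLN7, a matrix adhesion protein of the fibulin family, had the highest log2 fold change of the 15 genes with higher values, 1.96 ± 0.66 (SE), a 3.88-fold step. Controls ran from 0.933 through 3.49 to 17.4 CPM. Sham libraries were at 8.34, 39.2 and 32.7 CPM, acellular libraries at 6.20, 30.3 and 12.5 CPM, and PLATE libraries at 19.1, 15.5, 57.4 and 28.6 CPM. All 10 exceeded the control median, and 6 of them exceeded the highest control, control 24. Without control 24 the value was 2.63. CD44, the hyaluronan receptor of migrating and inflammatory cells, ran from 198 through 213 to 302 CPM in controls. It was at 406, 294 and 374 CPM in sham, 237, 262 and 291 CPM in acellular and 680, 236, 409 and 341 CPM in PLATE libraries. All 10 were above the control median, with acellular libraries inside the control range, and the log2 fold change was 0.57 ± 0.19 (SE), or 0.40 without the 3 libraries that stand apart.

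Next came a pair of matrix genes. ECM2, a matrix glycoprotein, ran from 28.3 to 72.2 CPM in controls and from 53.7 to 123 CPM in operated libraries, with 0.65 ± 0.23 (SE). VIT, a secreted matrix protein, was at 12.6, 14.7 and 27.3 CPM in sham libraries against at most 7.78 CPM in controls, and PLATE libraries (4.27 to 6.42 CPM) lay within the control range. Its log2 fold change was 1.93 in sham, 1.14 in acellular and 0.19 in PLATE, and 1.09 ± 0.34 (SE) overall.

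Of neural and membrane genes, NGFR, the low-affinity neurotrophin receptor of Schwann cells and nerve-associated fibroblasts, ran from 0.519 through 1.20 to 3.35 CPM in controls. It was at 4.28, 5.65 and 8.56 CPM in sham, 1.32, 3.83 and 3.11 CPM in acellular and 3.17, 2.45, 2.35 and 6.00 CPM in PLATE libraries. Sham libraries were above every control, and the fold change on the log2 scale was 1.20 ± 0.42 (SE). ADCYAP1R1, the receptor of the neuropeptide PACAP, had 0.80 ± 0.30 (SE), LRRC4, a synaptic adhesion protein, 0.90 ± 0.36 (SE), and NAP1L2, a nucleosome assembly protein of neurons, 0.87 ± 0.36 (SE). ATP8A1, a flippase that moves phospholipids across membranes, had 0.71 ± 0.22 (SE), with controls from 5.96 to 17.3 CPM and operated libraries from 11.2 to 22.0 CPM.

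Genes of metabolism and protein turnover completed the 15. FMO5, a flavin monooxygenase, had 0.51 ± 0.17 (SE), and SMPDL3A, a phosphodiesterase, 0.48 ± 0.18 (SE). PJA1, a ubiquitin ligase, had 0.35 ± 0.11 (SE). OS9, a lectin that delivers misfolded proteins for degradation, had 0.29 ± 0.10 (SE), with operated libraries from 136 to 160 CPM, above 5 of the 6 controls. Of the 15 genes with higher values, 9 had all 10 operated libraries above the control median, as did 1.52% of all genes, and of the 15 with lower values 10 had all of them below, as did 1.40%. These 30 genes were chosen for their p, so the counts describe the choice. The share of all genes with a single operated group fully above or below the controls is not given here. Such separations of sham or acellular libraries, here and below, are therefore values only. None of them changed sign when each library was left out in turn.

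**Figure D2:**
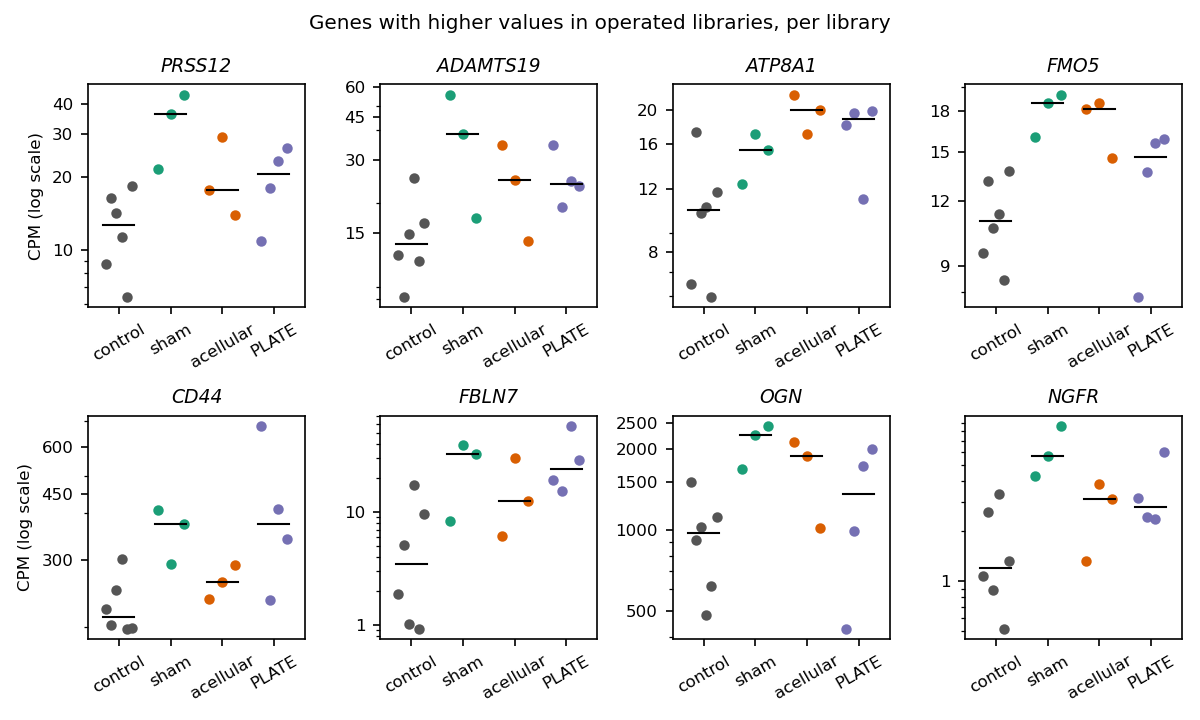
CPM (log axis) of 8 genes with higher values in operated libraries, 1 point per library, with a line at each group's median. Sham libraries lie above every control for PRSS12, FMO5, NGFR and OGN, and each operated group overlaps the controls for ATP8A1.

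Gene lists for cell types, matrix, immune function, signalling and metabolism (40 lists, 969 distinct genes tested) group the fold changes by tissue component and function. The median of each list is on the log2 fold change scale and stands beside the median of all genes, -0.02. The comparisons of sham, acellular and PLATE with control share the same 6 control libraries, so their values are not independent. The same sign in all 3 was seen in 36.4% of genes. No list member passed the edgeR test.

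**Figure D3:**
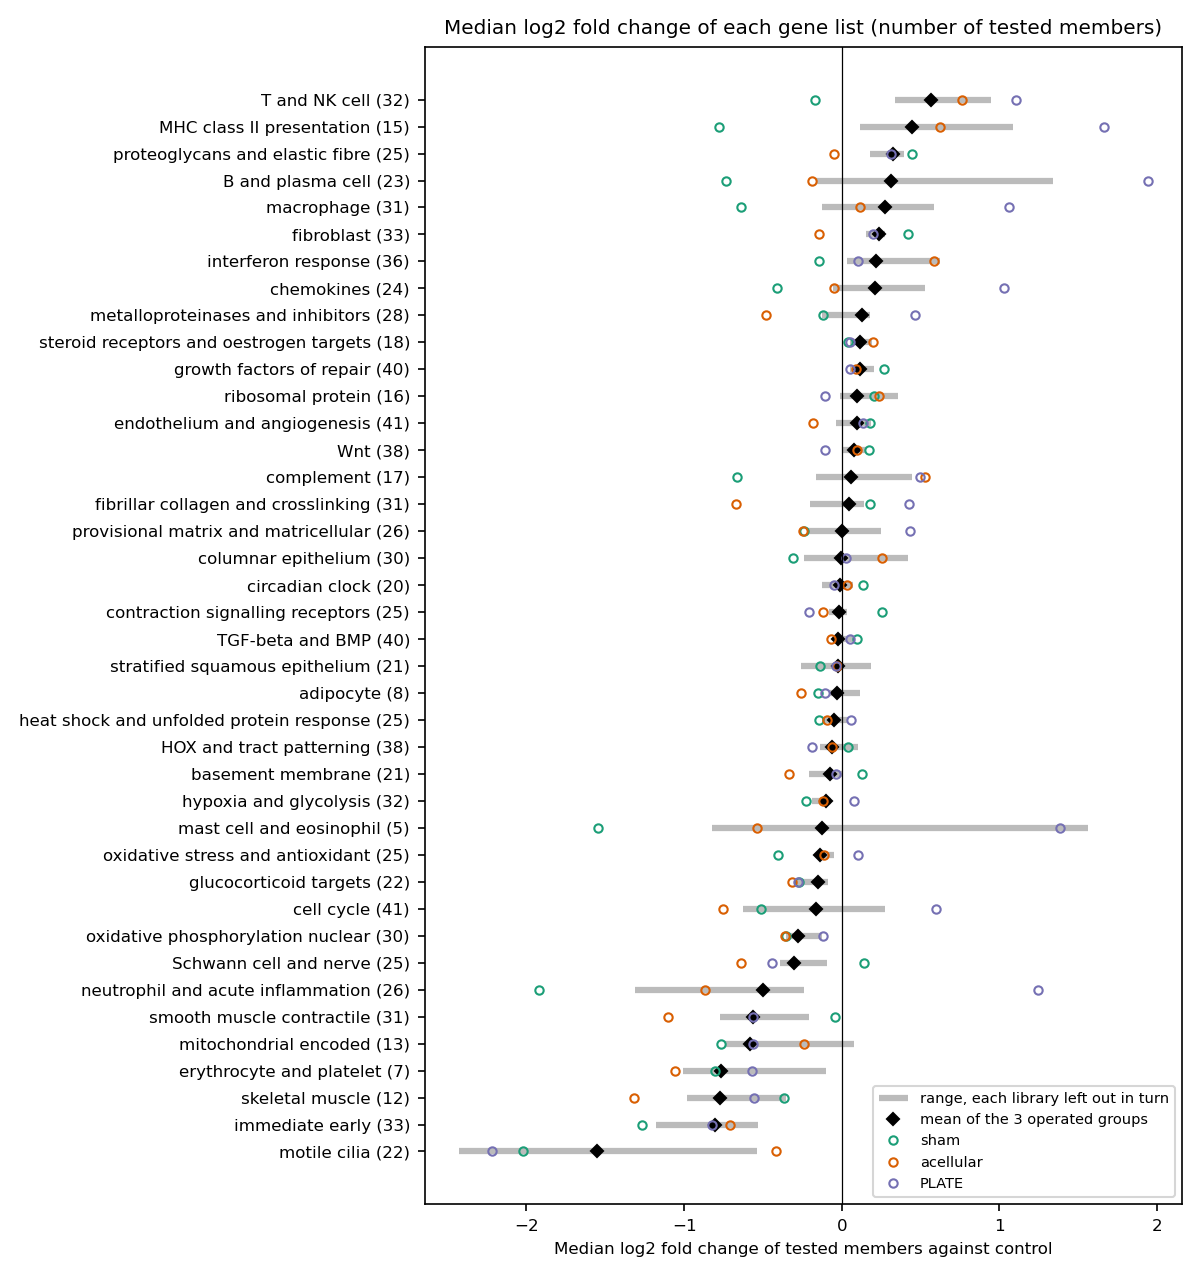
Median log2 fold change of the tested members of each gene list (horizontal axis) against control, with the number of members after each name. Diamonds are the mean of the 3 operated groups, open circles single groups and bars the range with each library left out in turn. Immediate early and muscle lists lie below 0, T and NK cell and MHC class II lists above it, and the immune lists have sham on the opposite side of PLATE.

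Immediate early genes had lower values in the mean of the operated groups, though not in every operated library. All 33 of 33 tested members had a log2 fold change below 0, with a median of -0.80, and 13 of them (39.4%) had an unadjusted p under 0.05, against 3.88% of all genes. The median was -1.27 in sham, -0.71 in acellular and -0.82 in PLATE, and 30, 30 and 29 of the 33 members were lower, against 57.8, 54.1 and 52.3% of all genes in these comparisons. It ran from -1.18 without acellular 6 to -0.53 without control 16. Without the 3 libraries that stand apart, 32 of 33 were lower, against 52.2% of all genes, with a median of -1.04. The members of a list are not independent of each other, so these counts are not repeated evidence. The mean list level on the log2 CPM scale was 5.23 in acellular 6, 4.49 in PLATE 1 and 4.34 in PLATE 5. These lay above control 9 (3.57), control 24 (3.94) and control 29 (4.29). The other operated libraries were at 3.30 to 3.69.

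FOSB, a subunit of the AP-1 transcription factor, had the lowest value of the list, -3.43 ± 0.99 (SE). Its controls were at 263, 2.68, 494, 2.00, 178 and 33.9 CPM in control 2, 9, 16, 24, 25 and 29, in this order. Sham libraries were at 6.43, 3.50 and 6.22 CPM, acellular libraries at 69.5, 6.52 and 16.5 CPM, and PLATE libraries at 5.17, 63.7, 8.16 and 3.20 CPM. Control 2, control 16 and control 25 exceeded every operated library, whereas control 9 and control 24 lay below all 10. The control range thus spans all operated values. EGR3, a zinc finger transcription factor, ran from 0.640 through 2.04 to 13.1 CPM in controls and from 0.0958 to 2.23 CPM in operated libraries, with -1.94 ± 0.60 (SE), or -0.92 without control 16. DUSP2, a phosphatase that switches off MAP kinases, ran from 0.605 through 2.68 to 7.81 CPM in controls and from 0.157 to 1.94 CPM in operated libraries, with -1.91 ± 0.54 (SE). DUSP1, a related phosphatase, was at 1284 CPM in control 2 and at 72.0 and 80.0 CPM in control 9 and control 24, and had -1.55 ± 0.61 (SE). SGK1, a kinase induced by serum and glucocorticoids, had -0.62 ± 0.20 (SE), with sham libraries at 46.4, 25.8 and 27.7 CPM, below the lowest control at 59.8 CPM. Other members had values of -2.40 (EGR1), -2.37 (FOS), -2.09 (BTG2) and -2.02 (NR4A1), down to -0.12 (MAFF).

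**Figure D4:**
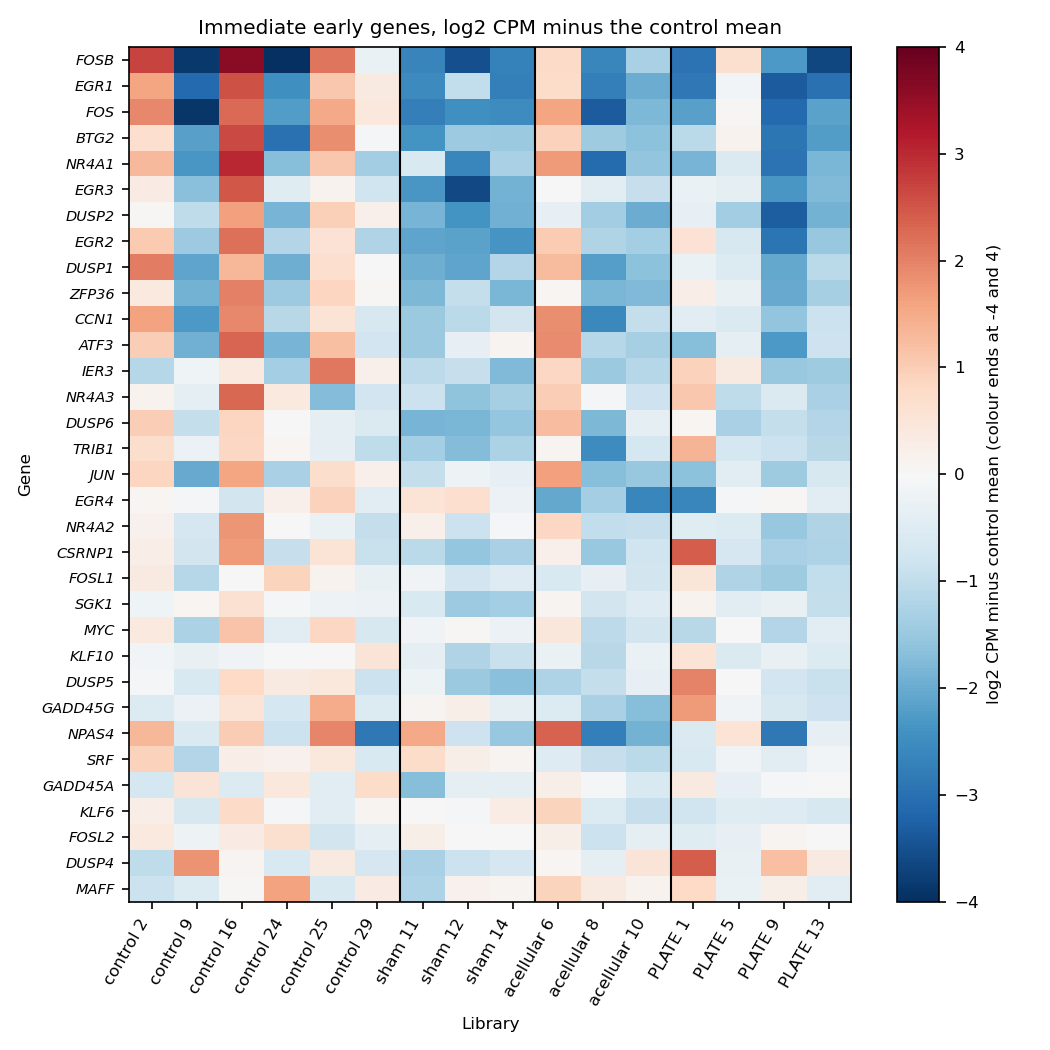
Colour map of the 33 tested immediate early genes (vertical axis) in each library (horizontal axis), as log2 CPM minus the control mean, with genes ordered by fold change and lines between groups. Control 16, control 2 and control 25 are red for the upper genes, control 9 and control 24 are blue like most operated libraries, and acellular 6 is red for many.

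The smooth muscle list, which covers proteins of contraction in the muscle layers, had 30 of 31 members below 0 with a median of -0.56. Of all genes, 55.1% were below 0. An unadjusted p under 0.05 was seen in 10 members (32.3%), against 3.88% of all genes. The sham median was -0.04, the acellular median -1.10 and the PLATE median -0.56. In sham 16 of 31 members were lower, against 57.8% of all genes. In acellular and PLATE 30 and 30 were lower, against 54.1 and 52.3% of all genes. In bulk tissue, fewer smooth muscle cells and less RNA per cell cannot be told apart. DES, the muscle intermediate filament desmin, ran from 1077 through 9225 to 21079 CPM in controls. It was at 6077, 5049 and 4220 CPM in sham, 1000, 2045 and 1948 CPM in acellular and 4720, 5814, 3386 and 3700 CPM in PLATE libraries. All 10 were below the control median and 9 of them above the lowest control, control 9, and the log2 fold change was -1.46 ± 0.47 (SE).

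ACTG2, the visceral smooth muscle actin, ran from 959 through 12416 to 49071 CPM in controls and from 1283 to 13087 CPM in operated libraries, with -1.85 ± 0.60 (SE), or -1.19 without control 2. CSRP1, a LIM protein of muscle filaments, had -1.08 ± 0.36 (SE), and TPM1, a tropomyosin, -1.15 ± 0.41 (SE). The list median moved to -0.21 without control 2, which had the highest mean list level of all libraries (9.93 on the log2 CPM scale), and to -0.77 without control 9, which had the lowest (7.27). Receptors of contraction signalling, which carry nerve and hormone signals to the muscle, had 13 of 25 members below 0 and a median of -0.02, although P2RX1 is among them.

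The skeletal muscle list, whose genes mark striated fibres, had 10 of 12 tested members below 0 and a median of -0.77, or -0.35 without control 25. CASQ1, a calcium store protein of striated fibres, ran from 0.400 through 4.21 to 19.4 CPM in controls and from 0.247 to 7.73 CPM in operated libraries, with -2.07 ± 0.76 (SE). CKM, the muscle creatine kinase, was at 231, 103.3 and 148 CPM in control 2, control 16 and control 25 and at 46.8 CPM or less in all other libraries. Its log2 fold change was -2.01 ± 0.90 (SE) and turned to 0.21 with the smooth muscle covariate and 0.24 with the skeletal muscle covariate. CKM is itself a member of the skeletal muscle list, so the covariate contains it and that value is partly set by construction. CA9, a carbonic anhydrase of the hypoxia list, had the same 3 controls at 42.6, 29.7 and 37.1 CPM and no other library above 13.7 CPM, with -1.61 ± 0.57 (SE) and -0.23 with the skeletal muscle covariate.

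**Figure D5:**
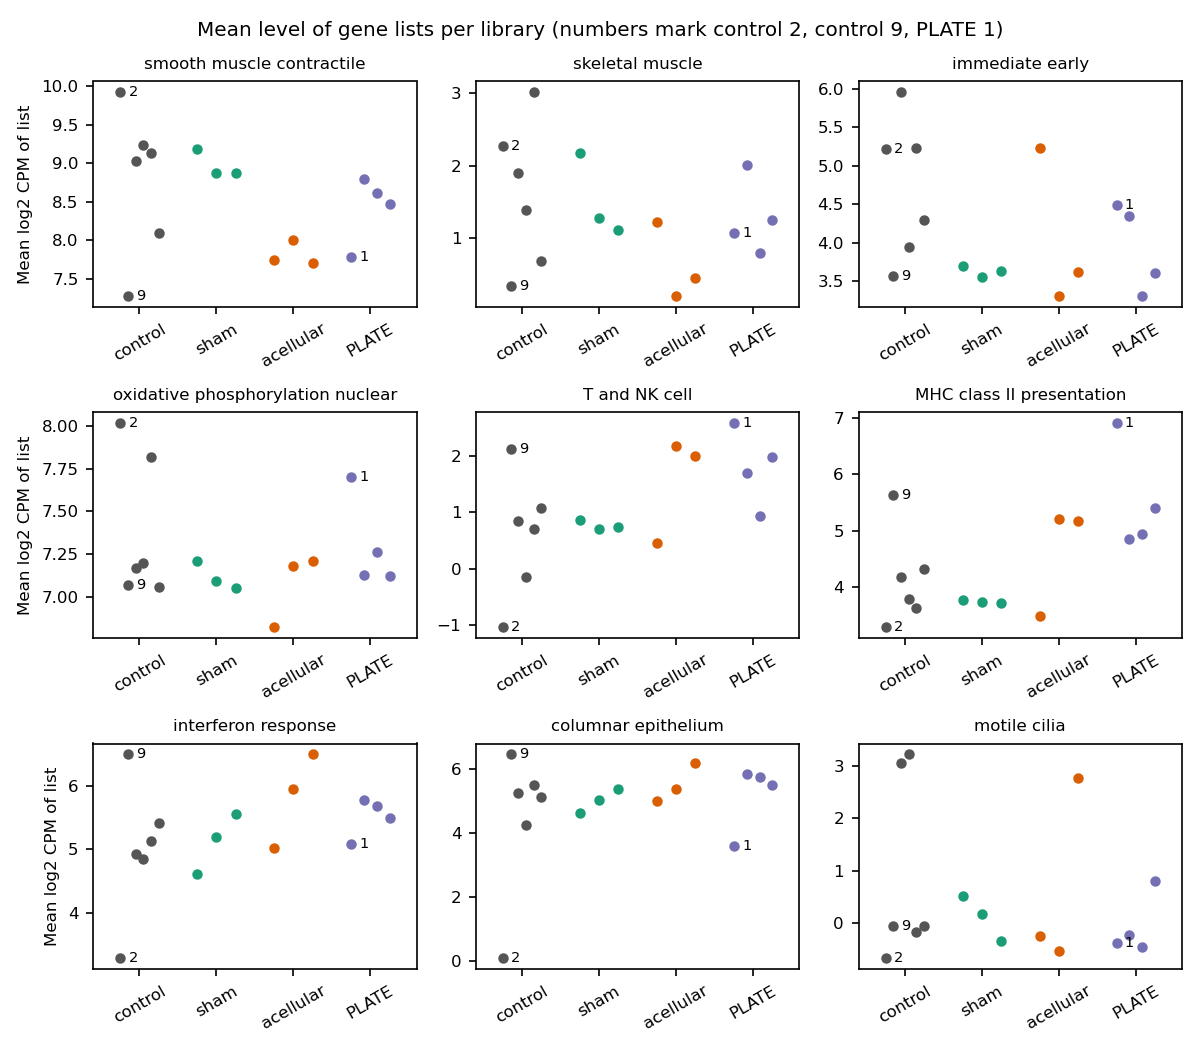
Mean log2 CPM of the tested members of 9 gene lists, 1 point per library by group, with numbers marking control 2, control 9 and PLATE 1. Control 2 is the highest for smooth muscle and the lowest for columnar epithelium, and the motile cilia points above 2 are 2 controls and acellular 10.

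Energy metabolism genes had lower values with small steps. All 30 tested nuclear genes of oxidative phosphorylation, which encode respiratory chain and ATP synthase subunits, were below 0, with a median of -0.28 that moved to -0.13 without control 2, and 27 of 30 were below 0 without the 3 libraries that stand apart. NDUFV2, a subunit of complex I, ran from 131 through 185 to 344 CPM in controls. It was at 140, 146 and 141 CPM in sham, 119, 154 and 145 CPM in acellular and 180, 155, 143 and 119 CPM in PLATE libraries, all below the control median, with -0.56 ± 0.18 (SE). The 13 mitochondrially encoded genes were all below 0, with a median of -0.58, which turned to 0.08 without control 2. ND6 and ND5, complex I subunits, had -1.32 ± 0.43 (SE) and -1.15 ± 0.41 (SE), and control 2 held 9477 and 23346 CPM of them. These 2 genes lie on opposite strands and overlap or adjoin in mammalian mitochondria, and the strand setting of the counting is not given in the sources used here, so their reads may not be separable.

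PDK4, a kinase that turns cells from glucose to fat as fuel, ran from 20.8 through 66.0 to 131 CPM in controls. It was at 9.73, 10.2 and 17.4 CPM in sham, below every control, at 53.5, 53.4 and 43.3 CPM in acellular and at 5.89, 43.2, 32.5 and 44.2 CPM in PLATE libraries, with a log2 fold change of -1.41 ± 0.44 (SE). ANGPTL4, a secreted inhibitor of lipoprotein lipase, ran from 1.00 through 7.11 to 27.2 CPM in controls and from 1.15 to 5.85 CPM in operated libraries, with -1.62 ± 0.53 (SE). Both belong to the glucocorticoid target list, in which 16 of 22 members were below 0, with a median of -0.15, or -0.30 without acellular 6. NR3C1, the glucocorticoid receptor, had 0.44 ± 0.22 (SE), with 9 of 10 operated libraries above the control median.

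The motile cilia list had the lowest median, -1.55, with 21 of 22 members below 0. CFAP44, a cilia protein, was at 8.26 CPM in control 16, 10.5 CPM in control 24 and 6.71 CPM in acellular 10, and at 1.02 CPM or less in the other 13 libraries. The median therefore moved to -0.54 without control 24 and to -2.43 without acellular 10.

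Of the T and NK cell list, 28 of 32 tested members were above 0, against 44.9% of all genes, with a median of 0.56, and without the 3 libraries that stand apart 28 of 31 were above 0, against 47.8% of all genes, with a median of 0.58. The sham median was -0.17, the acellular median 0.76 and the PLATE median 1.11. The overall median ran from 0.34 without control 2 to 0.95 without control 9, and the mean list level of acellular 6 (0.45 on the log2 CPM scale) lay below those of all controls but control 2 and control 24. IFNG, the cytokine interferon gamma, ran from 0 through 0.241 to 0.440 CPM in controls, 28 counts in all 6. It was at 0.838, 0.239 and 2.96 CPM in sham, 0.410, 2.49 and 0.543 CPM in acellular and 1.55, 1.18, 0.418 and 1.03 CPM in PLATE libraries, so that 7 of 10 exceeded the highest control, with a log2 fold change of 1.99 ± 0.78 (SE). GZMK, a granule protease of T cells, ran from 0.156 to 0.960 CPM in controls and from 0.157 to 1.94 CPM in operated libraries, with 1.02 ± 0.54 (SE). CD2, a member of the T and NK cell list, was at 0.540 CPM in control 2 and at 26.5 CPM in PLATE 1. The T cell markers CD3E and CD3D are not among the named genes.

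The MHC class II list, the molecules that show antigen to helper T cells, had 14 of 15 members above 0 and a median of 0.44, with -0.78 in sham, 0.63 in acellular and 1.67 in PLATE. The overall median ran from 0.11 without PLATE 1 to 1.09 without control 9. HLA-DRA, the class II alpha chain as named in the files, ran from 221 through 368 to 1800 CPM in controls. It was at 290, 364 and 309 CPM in sham, 283, 1565 and 1552 CPM in acellular and 4844, 800, 1168 and 1345 CPM in PLATE libraries. Sham libraries and acellular 6 lay below the control median, and the other 6 operated libraries exceeded every control but control 9. Only PLATE 1 exceeded control 9 too. The log2 fold change was 0.58 ± 0.54 (SE), or 1.30 without control 9 and 0.29 without PLATE 1.

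The B and plasma cell list had 19 of 23 members above 0 and a median of 0.31, which turned to -0.17 without PLATE 1 and moved to 1.34 without control 9. By group it was -0.74 in sham, -0.19 in acellular and 1.94 in PLATE. IGHM, the IgM heavy chain, ran from 193 through 662 to 4611 CPM in controls and was at 31234 CPM in PLATE 1 and 671 to 3557 CPM in the other 9 operated libraries. TNFRSF17, a survival receptor of plasma cells, was at 1.68 to 28.3 CPM in operated libraries, all above the control median of 1.51 CPM. The macrophage median was 0.27, with -0.64 in sham and 1.06 in PLATE. It turned to -0.13 without PLATE 1 and moved to 0.59 without control 9. Of the 31 macrophage genes 23 were above 0. The 2 with an unadjusted edgeR p under 0.05 (6.45%, against 3.88% of all genes) were lower, MARCO (-2.06) and CD163 (-1.53). Control 24 held 251 CPM of CD163, against 30.2 CPM in the next control. The mean macrophage list level was 6.85 on the log2 CPM scale in PLATE 1 and 4.05 to 4.83 in the other PLATE libraries. The neutrophil median was -0.50, with -1.92 in sham and 1.24 in PLATE. It moved to -1.31 without PLATE 1 and to -0.24 without control 9. With each operated library weighted equally, the neutrophil median turned to 0.57, so its sign depended on the weighting. PLATE 1 had a mean neutrophil list level of 6.77 on the log2 CPM scale, against 2.61, 3.56 and 3.21 in the other PLATE libraries and 2.78 to 4.42 in controls. No gene passed the edgeR test of a difference among the operated groups (0%), where 621 genes had an unadjusted p under 0.05 (5.68%).

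Of the interferon response list, 30 of 36 members were above 0, with a median of 0.22 that ran from 0.03 without control 2 to 0.62 without control 9. Without the 3 libraries that stand apart, 34 of 36 were above 0, with a median of 0.45. CXCL10, a T cell attracting chemokine induced by interferon, ran from 1.98 through 25.8 to 47.7 CPM in controls. It was at 37.2, 31.4 and 34.1 CPM in sham, 22.4, 149 and 101.7 CPM in acellular and 18.5, 62.3, 21.7 and 67.4 CPM in PLATE libraries. Acellular 8, acellular 10, PLATE 5 and PLATE 13 exceeded every control, and the log2 fold change was 1.13 ± 0.53 (SE).

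Proteoglycan and elastic fibre genes, which space and stretch the collagen network, had 20 of 25 members above 0 and a median of 0.32, with 0.45 in sham, -0.05 in acellular and 0.31 in PLATE. It was 0.18 without control 25. OGN, the small proteoglycan osteoglycin, ran from 483 through 967 to 1498 CPM in controls. It was at 1683, 2242 and 2424 CPM in sham, 2120, 1882 and 1013 CPM in acellular and 429, 991, 1718 and 1991 CPM in PLATE libraries. Only PLATE 1 lay below the control median, and the log2 fold change was 0.81 ± 0.32 (SE), or 1.13 without the 3 libraries that stand apart. LUM, the collagen-binding proteoglycan lumican, had 0.53 ± 0.27 (SE), and FNDC1, a fibronectin domain protein, 0.57 ± 0.25 (SE). MFAP4, an elastic fibre protein, had -0.57 ± 0.28 (SE), with acellular libraries at 72.6 to 122 CPM against a control median of 311 CPM.

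Fibrillar collagen and crosslinking genes had 16 of 31 members above 0 and a median of 0.05, with 0.18 in sham, -0.67 in acellular and 0.43 in PLATE. The overall median turned to -0.20 without PLATE 1, and to -0.15 without the 3 libraries that stand apart, with 20 of 31 members below 0. COL8A2, a short-chain collagen, ran from 0.465 to 1.19 CPM in controls and reached 25.6 CPM in PLATE 1, and its log2 fold change of 1.78 ± 0.75 (SE) moved to 0.90 without that library. P4HA3, a collagen proline hydroxylase, had 1.20 ± 0.55 (SE), or 0.74 without PLATE 1. TINAGL1, a basement membrane protein, ran from 40.8 to 133 CPM in controls and was at 19.6, 28.4 and 27.4 CPM in acellular libraries, with -0.90 ± 0.28 (SE). MMP13, a collagenase, was at 257 CPM in control 9 and at most 4.68 CPM in the other controls, and its log2 fold change of -2.90 ± 1.43 (SE) turned to 1.80 without control 9.

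With all libraries, several lists had medians near that of all genes. TGF-beta and BMP genes, the main growth factor family of scar formation, had 18 of 40 members above 0 and a median of -0.02. Wnt genes had 23 of 38 above 0 and a median of 0.08, growth factors of repair 23 of 40 and 0.11, endothelial genes 25 of 41 and 0.10, and HOX and tract patterning genes 17 of 38 and -0.06. Columnar epithelium genes had 15 of 30 members above 0 and stratified epithelium genes 9 of 21, with medians of -0.01 and -0.03. Both depended on single controls: the columnar median ran from -0.24 without control 2 to 0.42 without control 9, and the stratified median from -0.26 to 0.19 without the same controls. Without the 3 libraries that stand apart, 24 of 30 columnar genes were above 0, with a median of 0.22. Cell cycle genes had 34 of 41 below 0 and a median of -0.16, with 0.60 in PLATE, -0.51 in sham and -0.75 in acellular. Without PLATE 1 that median was -0.63 and without control 24 it turned to 0.27. With the 3 libraries that stand apart left out, 40 of 41 cell cycle genes were below 0, against 52.2% of all genes, with a median of -0.83. One of these 3, PLATE 1, had the highest mean cell cycle level of all libraries (5.17 on the log2 CPM scale).

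Fibroblast genes had 21 of 33 members above 0 and a median of 0.23, which ran from 0.15 to 0.27 with each library left out in turn. Basement membrane genes had 8 of 21 above 0 and a median of -0.07. Metalloproteinases and their inhibitors had 16 of 28 and 0.13, and matricellular genes of the provisional wound matrix 13 of 26 and 0.0028, and without PLATE 1 these medians turned to -0.13 and -0.21. Nerve and Schwann cell genes, which wrap and support axons, had 20 of 25 members below 0 and a median of -0.30, with 0.14 in sham, -0.64 in acellular and -0.44 in PLATE. That median moved to -0.10 without control 29. Chemokine genes had 17 of 24 members above 0 and a median of 0.21, which turned to -0.06 without PLATE 1 and moved to 0.53 without control 9. Complement genes had 13 of 17 above 0 and a median of 0.061, which turned to -0.16 without control 25 and moved to 0.45 without control 9. Mast cell and eosinophil genes (5 tested) had a median of -0.13, which turned to 1.56 without control 9 and moved to -0.82 without PLATE 1.

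Hypoxia and glycolysis genes had 23 of 32 members below 0 and a median of -0.10, antioxidant genes 18 of 25 and -0.14, and heat shock and unfolded protein genes 14 of 25 and -0.046. Ribosomal protein genes had 13 of 16 tested members above 0 and a median of 0.099, which ran from -0.01 without control 24 to 0.36 without control 2. Steroid receptor and oestrogen target genes had 11 of 18 above 0 and a median of 0.12. Circadian clock genes had 10 of 20 above 0 and a median of -0.01, and PER2, a clock repressor, was at 7.40, 9.34 and 11.9 CPM in sham libraries against at most 5.26 CPM in controls, with 0.60 ± 0.26 (SE). Adipocyte genes had 4 of 8 members above 0, and erythrocyte and platelet genes 5 of 7 below 0 with a median of -0.77, which moved to -0.099 without control 2.

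Spread between libraries was widest in the control group. The median SD of a gene's log2 CPM was 0.443 over the 6 controls, 0.192 over the 3 sham, 0.358 over the 3 acellular and 0.425 over the 4 PLATE libraries. Over the 4 controls other than control 2 and control 9 it was 0.365, and over the 3 PLATE libraries other than PLATE 1 it was 0.233. The labels do not state what else varied between animals. An animal identifier is given for each library, and the number 9 occurs in both control and PLATE. These were treated as 2 animals, and on that reading p-values measure the spread between animals.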

How the data were processed

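Poly(A) RNA of rabbit vagina was sequenced in 16 stranded libraries, per the labels' protocols. Reads were checked with FastQC, aligned with HISAT2 2.2.1 and counted with featureCounts, per the submitters' processing notes. The genome build, annotation and strand setting are not given in the sources used here. The authors deposited raw counts per gene symbol in whole numbers. The index at the end of each column name tied it to a sample. The line of genes without a symbol (22.9 to 28.5% of the 20992063 to 30695000 counts per library) was left out.

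Genes were filtered with filterByExpr (10942 of 13001 kept), TMM-scaled and fitted with edgeR 4.0.16 (R 4.3.3) in 1 quasi-likelihood model with 4 group means and 12 residual degrees of freedom. The contrast was the mean of sham, acellular and PLATE minus control, Benjamini-Hochberg adjusted over the tested genes (threshold 0.05), with a prior count of 2 on the log2 scale. Fold changes compare group mean counts, so 1 high library can set them. The SE beside an edgeR fold change was computed from the estimate without the prior count. The 2 estimates differ most at low counts, as for C4orf54, at -2.11 with the prior count and -2.28 without it. The median standard error was 0.222. The scripts were checked on simulated data with genes changed in all operated libraries. Of 100 genes changed 2-fold, 50 were recovered, and of 100 changed 4-fold, 83 were recovered, with 9 false calls. The simulation gave each gene the same dispersion in all groups and held no library that stood apart. In the real data the median SD was 0.443 in control and 0.192 in sham. The simulated rates therefore check the scripts and do not give the power of the real comparison. Alternatives were DESeq2 1.42.0, limma 3.58.1 (voom), DESeq2 size factors, other filters, weights and covariates, and libraries left out. The DESeq2 filtering at 0.05 and the skeletal muscle covariate were chosen after seeing the data. The 3 libraries left out together were picked by their values in these data.

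Genes were named by a rule: the 15 higher and 15 lower genes with the smallest p at a mean of at least 1 CPM, and, from each of 40 lists with at least 5 tested members, up to 4 members by smallest p. The text names part of these list members, chosen after their values were seen, and a few are not reported here. Outlying values and changes of sign were looked for in all the others. TTC19, FOS, EGR1, BTG2, NR4A1, MAFF and the marker genes MYH11, HOXA13, EPCAM and CD2 are outside the rule and were chosen with their values known. The comparison and the lists were chosen with earlier results of these data known. No sequence was used here.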

Additional observations from a re-analysis of the deposited data

Results flagged for a closer look

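Library values that lay far from the rest of their group, by the gap to the nearest library relative to the group's range (Dixon's 95% critical value), are given here for the control and PLATE groups, the only ones with at least 4 libraries. Of 442 groups of values examined, over 4 library measures, 40 list means and 177 genes, 43 values stood out in this way. Chance gives about 1 in 20 groups, and values of 1 library are not independent of each other.

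PLATE 1 held 16 of these values. Its mean log2 CPM was lowest in PLATE for contraction signalling receptors (3.67), columnar epithelium (3.58), basement membrane (5.32) and steroid receptor and oestrogen target genes (3.91), and highest for heat shock and unfolded protein genes (7.70). It was lowest for PIGR, which carries antibodies across epithelium (181 CPM, next 1298), the oestrogen receptor ESR1 (46.8 CPM, next 346.5), the complement protease C1R (814 CPM), PDK4 (5.89 CPM) and the clock gene CLOCK (16.9 CPM). It was highest for the desmosome gene PKP1 (6.47 CPM), P4HA3 (57.95 CPM), the costimulator CD86 (45.2 CPM), the IgE receptor chain FCER1A (41.8 CPM, next 2.25), HERPUD1 of the unfolded protein response (275 CPM) and NDUFB3 of complex I (106.9 CPM).

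In control 9 the mean of B and plasma cell genes was 4.32 (next 2.03). The class II genes HLA-DMA (76.9 CPM) and HLA-DMB (162 CPM), the T cell ligand CD40LG (2.72 CPM), the cytokine IL36A (5.40 CPM, next 0.0465), the lipoxygenase ALOX15 (2.84 CPM, next 0) and the oxidase DUOX2 (23.3 CPM, next 0.372) were highest there. The metalloproteinase MMP28 (1.48 CPM) was lowest there.

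Control 2 had the fewest genes detected (10797, next 11427), the lowest columnar epithelium mean (0.070, next 4.24) and the lowest PKP1 (0.540 CPM) and KIT, a mast cell receptor (0.450 CPM). In control 24 the macrophage receptor CD163 (251 CPM, next 30.2), the mitotic kinase TTK (13.2 CPM) and the replication factor CDC6 (10.7 CPM) were highest. In control 25 the keratin KRT10 (16.9 CPM) and COL8A2 (1.19 CPM) were highest and the B cell factor EBF1 (7 CPM) lowest. In control 16 SGK1 (109.1 CPM) and the cytokine LIF (1.24 CPM) were highest.

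PLATE 5 had the highest stratified epithelium mean (4.48), the lowest ribosomal protein mean (9.83), the lowest IL36A (0.0873 CPM) and the highest SLC4A1 of erythrocytes (0.0873 CPM, next 0). PLATE 9 had the lowest ATP8A1 (11.2 CPM) and CHRDL1, a BMP antagonist (41.9 CPM), and the highest DUOX2 (8.79 CPM).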

How the results depend on the processing

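The count of genes past the threshold was 0 in 28 of 30 alternatives, voom and each left-out library included. It was 1, P2RX1, in the DESeq2 test, with the tool's own filtering and with filtering set for 0.05. With control 2, control 9 and PLATE 1 left out together, 401 higher and 620 lower genes had an unadjusted p under 0.05, against 96 and 329 with all libraries. The test among the operated groups called 0 genes in its 12 alternatives. No paired analysis was possible because the only number shared between groups, 9 in control and PLATE, gives 1 pair; without both libraries 0 genes passed.

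The operated minus control difference in mitochondrial percent, with the operated libraries pooled, ran from -3.15 to 0.271 with each library left out. The latter was without control 2. The pooled difference in genes detected, 47.4 (42.9 with the 3 groups weighted equally), ran from -75.1 (without control 2) to 92.8. It was -55.9 without control 2, control 9 and PLATE 1. Of 5275 log2 fold changes of the 177 genes named by the rule or by their groups under alternatives, 46, in 21 genes, changed sign; the cause was not tested. Several of these genes are not described above, since the text names only part of the 177. With each library left out, TNNT3 ran from -3.91 to 0.16, FOXA2 from -1.12 to 0.22, OVGP1 from -1.85 to 0.33, MMP13 from -3.72 to 1.80, CD36 from -2.02 to 0.29, PPARG from -0.56 to 0.13, IL36A from -2.78 to 0.55, ALOX15 from -0.82 to 1.99, FCER1A from -1.003 to 0.15, RPL24 from -0.49 to 0.12, TTK from -1.03 to 0.22, CCND3 from -0.27 to 0.039, CDC6 from -1.11 to 0.51, STC1 from -1.23 to 0.30, DUOX2 from -3.40 to 1.19 and EPB42 from -1.01 to 0.11. Their signs turned without control 9 (FOXA2, MMP13, IL36A, ALOX15, CCND3, STC1, DUOX2), control 24 (CD36, PPARG, TTK, CDC6), control 25 (TNNT3, OVGP1), control 2 (RPL24, EPB42) or control 29 (FCER1A).

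The smooth muscle covariate gave CKM 0.21, ACTA1 0.17, OVGP1 0.067, COL4A2 0.063, ALOX15 0.12, RPL24 0.11, CHRDL1 0.079 and EPB42 0.41. With the skeletal muscle covariate CKM, itself a member of that list, was 0.24, OVGP1 0.75, KRT17 0.048, RPL24 0.044 and EPB42 0.20. The epithelium covariate gave RPL24 0.065 and EPB42 0.026. In voom MMP13 was 2.10, ALOX15 2.57, DUOX2 0.067 and EPB42 0.32. Weighting each operated library equally gave ALOX15 0.18 and FCER1A 0.96. This weighting also turned the list medians of neutrophil (0.57), mast cell and eosinophil (0.72) and cell cycle genes (0.04). The B and plasma cell median moved to 1.09 with it. Of the list medians under alternatives, 6 moved by at least the SD of the list's mean level within groups, and 1194 by less. Without control 2, control 9 and PLATE 1, MMP13 was 1.95, ALOX15 1.74, STC1 0.13 and DUOX2 1.12. Without control 9 and PLATE 9, FOXA2 was 0.065, MMP13 1.88, ALOX15 2.10, CCND3 0.015 and DUOX2 0.70. Genes at a few counts per library, such as IFNG, are limited by depth.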
